A study of Mus musculus with 6 samples.

Results

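Mucins are long, heavily glycosylated proteins of epithelial surfaces. Gel-forming mucins are secreted and make up the mucus of the airway, while membrane mucins stay anchored in the cell surface and form the layer beneath that mucus. In the mouse airway Muc5b is the gel-forming mucin made at rest, and Muc5ac is the gel-forming mucin that goblet cells make in allergic inflammation. The 7 genes described here were given by name: the gel-forming mucins Muc5ac and Muc5b, the membrane mucins Muc1, Muc4, Muc16 and Muc15, and the mucin-like membrane protein Muc20. All 7 are on the array, in 10 probe sets of the 45037 tested: 3 for Muc4, 2 for Muc20 and 1 for each of the others. They stand beside 18193 genes in all.

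Whole lungs were taken at postnatal day 15 and their RNA was hybridised to Affymetrix arrays, 3 from littermate controls labelled wildtype and 3 from mice labelled Foxa2-/-, called null here. The strain label is the same in both groups, SPC(+)Cre(-), with doxycycline (Dox) from embryonic day 6.5 to 12.5, and it is at odds with the genotype label of the null mice. In mouse lines of this kind, SPC stands for surfactant protein C, whose promoter directs a doxycycline-dependent activator, and through it Cre, to the developing lung epithelium. The labels do not describe the Foxa2 allele or say whether each array is a separate animal, so the p-values cover the spread among these arrays alone, and that spread may be technical. Foxa2, a DNA-binding protein of the forkhead family found in lung epithelium, read 10.28, 10.56 and 10.28 in controls and 7.72, 5.38 and 5.13 in null lungs (log2 signal), so its signal follows the genotype label. That difference, -4.30 (SE 0.66), had a limma adjusted p of 0.0599, and it passed 0.05 without null replicate 1 (-5.12, adjusted p = 0.00227).

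Values are log2 signals made by RMA, which brings the arrays to one distribution and turns each probe set's probes into 1 value. Array medians ran from 7.85 to 7.91, and the number of arrays limits the precision. Array controls for Gapdh, which reflect RNA quality by how far the 3-prime signal exceeds the 5-prime signal, gave 1.06 to 1.23 (log2) on control arrays and 0.91 to 0.97 on null arrays. The same controls for Actb gave 0.46 to 0.65 on control arrays and 0.43 to 0.47 on null arrays, so there the groups overlap. The part of RNA quality in the mucin values was not tested. Null replicate 1 stood apart from the other null arrays (Pearson's r over probe sets of 0.9762 and 0.9772, against 0.9921 between null replicates 2 and 3). Control replicate 2 and null replicates 2 and 3 share the first number in their titles, whose meaning is not given.

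Promoter sequences from RefSeq were at hand for 4 of the 7 mucins, Muc1, Muc4, Muc16 and Muc20. Of these, Muc1, Muc4 and Muc20 are the mucins whose null and control arrays did not overlap, and their promoters are shown because Foxa2 is a DNA-binding factor. Each run covers 250 bases before to 50 bases after the start, on the gene's own strand, from build GRCm38.p6. Muc1 lies on the plus strand at chr3:89228806-89229105, Muc4 on the plus strand at chr16:32735636-32735935 and Muc20 on the minus strand at chr16:32797386-32797685. Capitals mark matches, on either strand, to the forkhead core TGTTTNC or to the TATA box TATAAA.
Muc1: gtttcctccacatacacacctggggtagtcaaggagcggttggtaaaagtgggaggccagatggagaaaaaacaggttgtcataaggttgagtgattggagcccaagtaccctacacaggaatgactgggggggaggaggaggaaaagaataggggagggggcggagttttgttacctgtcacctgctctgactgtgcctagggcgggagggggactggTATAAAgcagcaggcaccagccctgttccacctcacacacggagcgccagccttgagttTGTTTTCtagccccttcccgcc
Muc4: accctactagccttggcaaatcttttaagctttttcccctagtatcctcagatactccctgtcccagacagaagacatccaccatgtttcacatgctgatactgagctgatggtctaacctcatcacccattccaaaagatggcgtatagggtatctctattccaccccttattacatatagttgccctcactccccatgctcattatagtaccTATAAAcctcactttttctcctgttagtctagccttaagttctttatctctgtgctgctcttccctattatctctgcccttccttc
Muc20: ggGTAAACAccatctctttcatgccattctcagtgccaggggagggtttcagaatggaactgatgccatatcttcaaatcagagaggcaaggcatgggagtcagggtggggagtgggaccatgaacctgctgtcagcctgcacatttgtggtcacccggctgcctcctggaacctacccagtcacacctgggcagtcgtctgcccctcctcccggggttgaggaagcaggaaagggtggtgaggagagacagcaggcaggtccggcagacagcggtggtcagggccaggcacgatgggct

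The Muc20 window holds 1 match to the stricter forkhead motif TGTTTAC, which also matches TGTTTNC, on the opposite strand at 248 bases before the start. The stricter motif is in 3.65% of the 32851 windows of the same length in the table, and TGTTTNC in 20.5%. The Muc1 window holds 1 TGTTTNC match, on the same strand from base 29 after the start, and the Muc4 and Muc16 windows hold none. TATAAA, in 13.6% of windows, begins 31 bases before the start of Muc1 and 36 bases before that of Muc4, and is in neither the Muc20 nor the Muc16 window. The motif TTCNNNNGAA, bound by STAT6 (the factor that type 2 cytokines activate) and in 6.95% of windows, is in none of the 4. These matches describe the letters and were not tested as binding sites.

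None of the 7 mucin genes passed the test between null and control lungs. Limma with Benjamini-Hochberg adjustment over all genes called 0 of 7 at 0.05, where 0.572% of all genes were called. At an unadjusted p under 0.05 there were 3 of 7, Muc1, Muc4 and Muc20, against 12.3% of all genes. Taking the first number in the titles as a fixed block leaves control replicate 2 as the only control. Muc5ac and Muc5b were lowest in that array, so no count is given for that fit. When that number entered as a random block instead, 5 of 7 had an unadjusted p under 0.05 (3202 of all genes). At the level of probe sets 0 of 10 were called, against 0.0999% of all, and 4 of 10 had an unadjusted p under 0.05, against 10.7% of all probe sets. Every null array lay above every control for 1 of 7 genes, Muc1, where 10.8% of all genes did so. Every null array lay below every control for 2 of 7, Muc4 and Muc20, where 8.73% did so. In whole lung, fewer cells of a type and less RNA per cell cannot be told apart, and this holds for each value below.

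**Figure D1:**
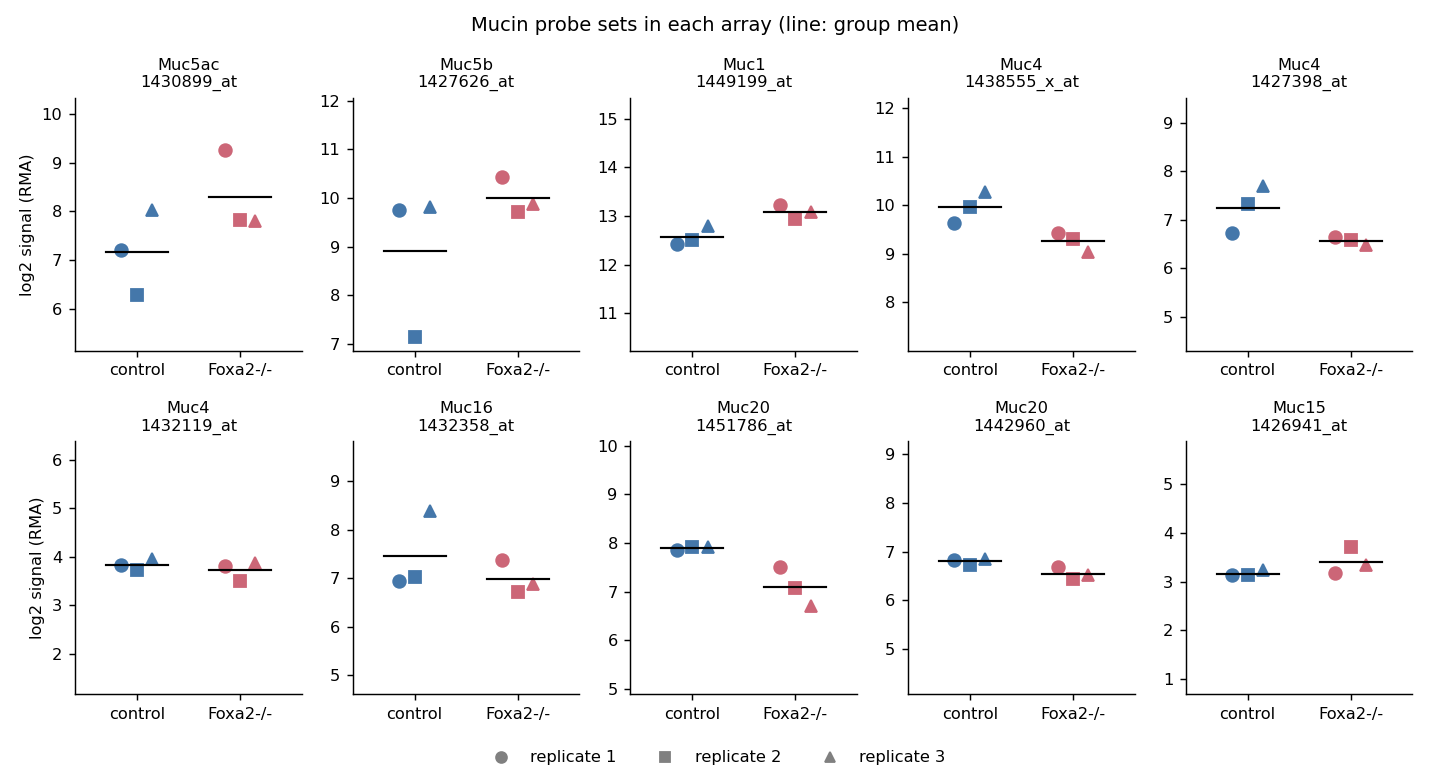
Log2 signal (RMA) of each of the 10 mucin probe sets, in 3 control arrays (blue) and 3 Foxa2-/- arrays (red), with the marker shape giving the replicate and the line the group mean. Each panel spans the same number of log2 units around its own mean. Muc5b is low in control replicate 2 alone, at 7.14, while Muc20 (1451786_at) is close to 7.9 in all 3 controls and lower in each null array.

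Muc5ac, the gel-forming mucin of goblet cells, read 7.22, 6.28 and 8.03 in controls and 9.27, 7.82 and 7.80 in null lungs. Only null replicate 1 was above all controls, and null replicates 2 and 3 lay just under control replicate 3, so the groups overlap. The means were 7.17 ± 0.88 and 8.30 ± 0.84 (log2, SD, n = 3 each), a difference of 1.13 (SE 0.56, 95% interval -0.21 to 2.46) with a limma adjusted p of 0.487. The difference was 0.64 without null replicate 1 and 0.68 without control replicate 2, and 1.15 to 1.55 without any 1 of the other 4 arrays. Among the 3 samples with a shared title number, 1 control and 2 null, it was 1.54.

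Muc5b, the gel-forming mucin on which mucus clearance from mouse airways depends, read 9.76, 7.14 and 9.83 in controls and 10.44, 9.71 and 9.88 in null lungs. Control replicates 1 and 3 sat among the null arrays, and control replicate 2 was far below the other 5. The means were 8.91 ± 1.53 and 10.01 ± 0.38 (log2, SD, n = 3 each), a difference of 1.10 (SE 0.72, 95% interval -0.62 to 2.82) with a limma adjusted p of 0.602. Without control replicate 2 the difference was 0.22 (adjusted p = 0.871). With the shared title number it was 2.65, where control replicate 2 is the only control. The Muc5b difference therefore rests on 1 control array, and the Muc5ac difference is smaller, but still positive, without that array.

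**Figure D2:**
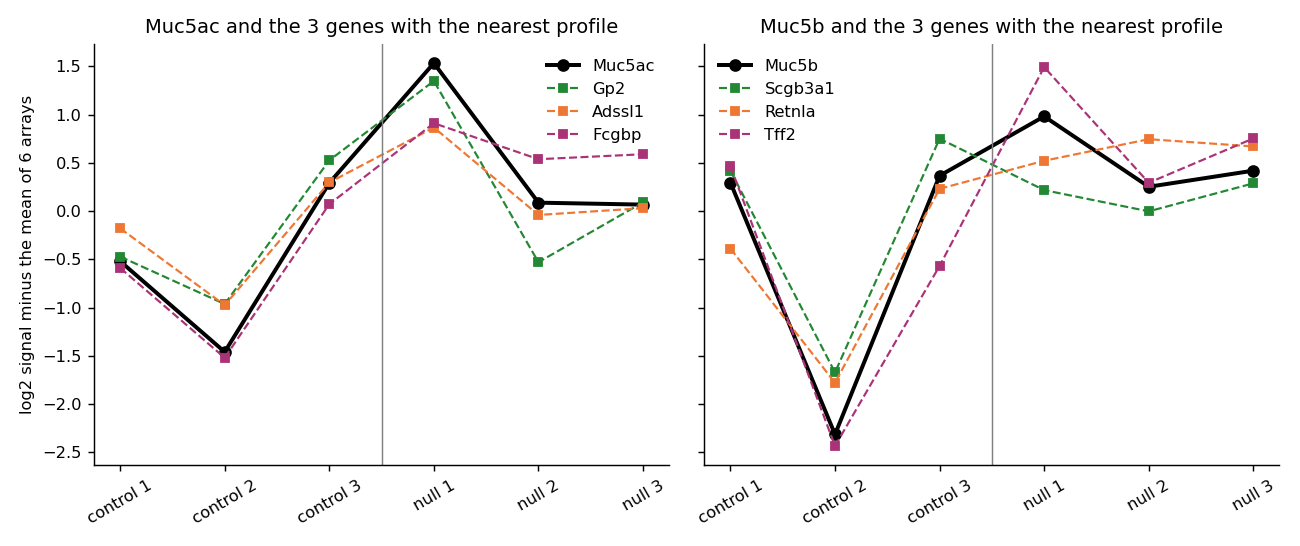
Log2 signal minus each gene's mean over 6 arrays, for Muc5ac (left) and Muc5b (right) and the 3 genes whose profiles lie nearest to each, across 3 control and 3 null arrays. Both mucins are lowest in control replicate 2 and highest in null replicate 1.

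The genes with profiles nearest to each gel-forming mucin were found by the root mean square difference between mean-centred log2 values over the 6 arrays. Such a choice among all genes itself favours genes whose differences resemble that of the mucin, here and for the other mucins below. For Muc5b they were Scgb3a1, a secretoglobin of airway secretory cells (0.46), Retnla, a resistin-like protein of type 2 inflammation (0.46), and Tff2, a trefoil peptide secreted with mucins (0.46), on a profile whose range was 3.30. Scgb3a1 read 13.16, 11.07 and 13.49 in controls and 12.96, 12.74 and 13.03 in null lungs, so its only low array was control replicate 2, as for Muc5b. Tff2 read 10.06, 7.16 and 9.03 in controls and 11.09, 9.89 and 10.35 in null lungs. For Muc5ac they were Gp2, a glycoprotein of the digestive tract (0.35), Adssl1, an enzyme of purine metabolism (0.37), and Fcgbp, a mucus-associated protein (0.39), on a range of 2.99. Gp2 read 4.65, 4.16 and 5.65 in controls and 6.47, 4.59 and 5.21 in null lungs. Except in null replicate 1 it was below the 25th percentile of the array (5.69 to 5.78). Fcgbp read 8.87, 7.94 and 9.53 in controls and 10.37, 9.99 and 10.05 in null lungs, with no overlap between the groups. Retnla, at 13.32, 11.92 and 13.94 against 14.23, 14.45 and 14.37, also had no overlap. None of the 6 passed, with limma adjusted p values of 0.218 for Fcgbp to 0.854 for Scgb3a1.

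Muc1, a membrane mucin of airway and alveolar epithelial surfaces, read 12.42, 12.50 and 12.80 in controls and 13.24, 12.95 and 13.08 in null lungs. Every null array was above every control. The means were 12.57 ± 0.20 and 13.09 ± 0.14 (log2, SD, n = 3 each), a difference of 0.52 (SE 0.15, 95% interval 0.16 to 0.87) or 1.43-fold, with a limma adjusted p of 0.219. The difference was 0.44 to 0.63 with any 1 array left out and 0.51 within the shared title number. The nearest profiles were those of Mroh1, Cblc, a ubiquitin ligase of epithelial cells, and Qrich2, at 0.05 to 0.07 on a range of 0.82. Of 8 markers of epithelium in general 0 passed, 7 had positive differences and 4 lay above all controls, as 10.8% of all genes did. Elf3, an epithelial transcription factor, differed by 0.82 (SE 0.17, adjusted p = 0.106), and Krt8, a keratin of simple epithelia, by 0.55 (SE 0.16, adjusted p = 0.221). In the same list Epcam differed by 0.13 (SE 0.11, adjusted p = 0.673) and Cdh1 by -0.0077 (SE 0.11, adjusted p = 0.985). The largest difference was that of Cldn4, at 1.18 (SE 0.49, adjusted p = 0.405), which was below the 25th percentile of 1 array. The mean log2 signal of that list ran from 10.81 to 11.14 over the controls and from 11.19 to 11.68 over the null arrays, and its part in the Muc1 difference was not tested.

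Muc4, a membrane mucin of the ciliated airway surface and a ligand of the receptor ErbB2, was lower in null lungs in its brighter probe sets. The brightest, 1438555_x_at, read 9.64, 9.96 and 10.28 in controls and 9.43, 9.30 and 9.03 in null lungs, with every null array below every control. The difference was -0.70 (SE 0.20, 95% interval -1.17 to -0.23) between means of 9.96 ± 0.32 and 9.26 ± 0.20 (log2, SD, n = 3 each), a limma adjusted p of 0.21. The ending _x_at marks a probe set in which some probes can match other transcripts. The probe set 1427398_at read 6.72, 7.32 and 7.69 in controls and 6.66, 6.58 and 6.47 in null lungs, also without overlap, and differed by -0.68 (SE 0.24, adjusted p over all probe sets = 0.401). The third, 1432119_at, stayed between 3.49 and 3.95, below the 25th percentile of each of the 6 arrays (5.69 to 5.78), and differed by -0.11 (SE 0.14). With the mean of the 3 probe sets Muc4 differed by -0.49. Without any 1 array the brightest probe set gave -0.86 to -0.54, and within the shared title number -0.79.

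Muc20, a mucin-like membrane protein that in human cells binds the receptor MET, was lower in null lungs in both probe sets. Its brighter probe set, 1451786_at, read 7.85, 7.92 and 7.91 in controls and 7.50, 7.08 and 6.70 in null lungs. The difference was -0.80 (SE 0.21, 95% interval -1.29 to -0.31), or 1.74-fold lower, between means of 7.89 ± 0.04 and 7.10 ± 0.40 (log2, SD, n = 3 each), a limma adjusted p of 0.179. Null replicate 1 was nearest to the controls here, whereas for Muc1 and Muc5ac it was the null array furthest from them. Without null replicate 1 the Muc20 difference was -1.0 and passed (adjusted p = 0.0448), and with array weights it was -0.93 and passed (adjusted p = 0.0267). Of all 18193 genes, limma called 249 without null replicate 1 and 607 with array weights, against 104 with all arrays unweighted. Over all probe sets, 0 of the mucin probe sets were called without null replicate 1 and 1 with array weights. The Muc20 difference was -0.60 without null replicate 3, -1.03 within the shared title number and -0.53 with the mean of both probe sets. The dimmer probe set, 1442960_at, read 6.83, 6.73 and 6.85 in controls and 6.67, 6.43 and 6.53 in null lungs and differed by -0.26 (SE 0.12, adjusted p over all probe sets = 0.511). Of the 10 mucin probe sets 4 had every null array below every control, the brighter 2 of Muc4 and both of Muc20, against 7.76% of all probe sets.

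**Figure D3:**
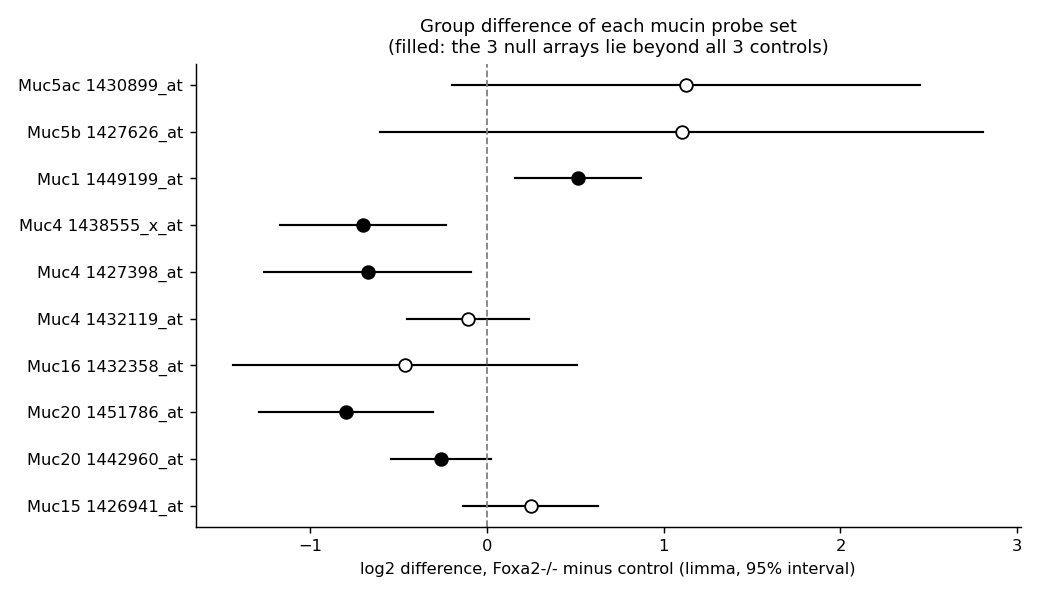
Log2 difference, Foxa2-/- minus control, of each of the 10 mucin probe sets, with 95% intervals from limma; filled points have all 3 null arrays beyond all 3 controls. The points of Muc4 and Muc20 lie below 0 and that of Muc1 above it; the intervals of 1432119_at (Muc4) and 1442960_at (Muc20) include 0, as do the wider ones of Muc5ac and Muc5b.

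Muc4 and Muc20 are neighbours on chromosome 16 that overlap in RefSeq's annotation (GRCm38.p6) and run in opposite directions. Whether either gene's probes read RNA of the other was not tested. Where the probe sets lie in the genes was not analysed here. Muc5ac and Muc5b are also neighbours, on chromosome 7, beside Muc2. The nearest profiles to Muc4 were those of Gnaz, a G protein subunit, Hoxa2, a homeobox factor, and Ptpdc1 (0.10 to 0.12 on a range of 1.24). Those nearest to Muc20 were Cyp2c23, a cytochrome P450, Col12a1, a collagen, and Sox11, a developmental transcription factor (0.09 to 0.10 on a range of 1.22). None of these 6 genes passed (limma adjusted p of 0.106 for Cyp2c23 to 0.322 for Hoxa2), and their choice by profile favours such a result.

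Markers of airway epithelial cells were set beside Muc4 and Muc20. Of 8 ciliated cell genes 0 passed, 8 had negative differences and 2 lay below all controls (8.73% of all genes did), with a median difference of -0.40. Dnaic1, a dynein chain of cilia, differed by -0.59 (SE 0.20, adjusted p = 0.314) and Ccdc113, another ciliary protein, by -0.54 (SE 0.20, adjusted p = 0.343). Of 8 club cell genes 0 passed, 7 had negative differences and 4 lay below all controls (8.73% of all genes), with a median of -0.28. Cldn10, a claudin of club cells, differed by -0.85 (SE 0.13, adjusted p = 0.0605) and Cyp2f2, a club cell cytochrome P450, by -0.51 (SE 0.13, adjusted p = 0.165). The mean log2 signal was 8.64 to 9.18 in controls against 8.35 to 8.47 in null lungs for the ciliated list, and 12.89 to 13.12 against 12.58 to 12.88 for the club cell list. Their part in the Muc4 and Muc20 differences was not tested.

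Muc16, a very large membrane mucin of airway and mesothelial surfaces, read 6.95, 7.02 and 8.39 in controls and 7.37, 6.71 and 6.89 in null lungs. Control replicate 3 was high and the other 5 arrays were close together. The means were 7.45 ± 0.81 and 6.99 ± 0.34 (log2, SD, n = 3 each), a difference of -0.46 (SE 0.41, 95% interval -1.44 to 0.52) with a limma adjusted p of 0.696. Without control replicate 3 the difference was 0.0048, so its direction rests on that array. Mesothelial genes were also highest among controls in control replicate 3, where their mean log2 signal was 9.67, against 8.75 and 8.94. Over the null arrays that mean ran from 9.30 to 9.66, and its part in the Muc16 values was not tested. Msln, the mesothelial protein mesothelin, read 10.69, 10.72 and 11.98 in controls and 11.99, 11.64 and 11.87 in null lungs (0.70, SE 0.35, adjusted p = 0.497). Lrrn4, a surface protein of mesothelium, differed by 1.41 (SE 0.37, adjusted p = 0.186). These 2 had the largest differences of the 8 mesothelial genes. Of the 8, 0 passed, 7 had positive differences and 1 lay above all controls (10.8% of all genes did), with a median of 0.19. The profiles nearest to Muc16 were those of Gsto2, a glutathione transferase, Dusp26, a phosphatase, and Hoxd10, a homeobox factor (0.07 to 0.16 on a range of 1.68).

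Muc15, a small membrane mucin, stayed between 3.13 and 3.71 in all 6 arrays, below the 25th percentile of each. Controls read 3.14, 3.13 and 3.23 and null lungs 3.18, 3.71 and 3.34, a difference of 0.25 (SE 0.16, 95% interval -0.13 to 0.62) that did not pass (limma adjusted p = 0.593). Without null replicate 2 it was 0.10, and within the shared title number 0.40. At that level the deposited values do not show whether the signal is above background. It overlaps another gene, Ano3, in the annotation. The nearest profiles, of Kcnj10, Abcb1b and Etnppl (0.04 to 0.06 on a range of 0.58), belong to genes that did not pass either. Etnppl, between 4.25 and 4.82, was also below the 25th percentile of every array.

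**Figure D4:**
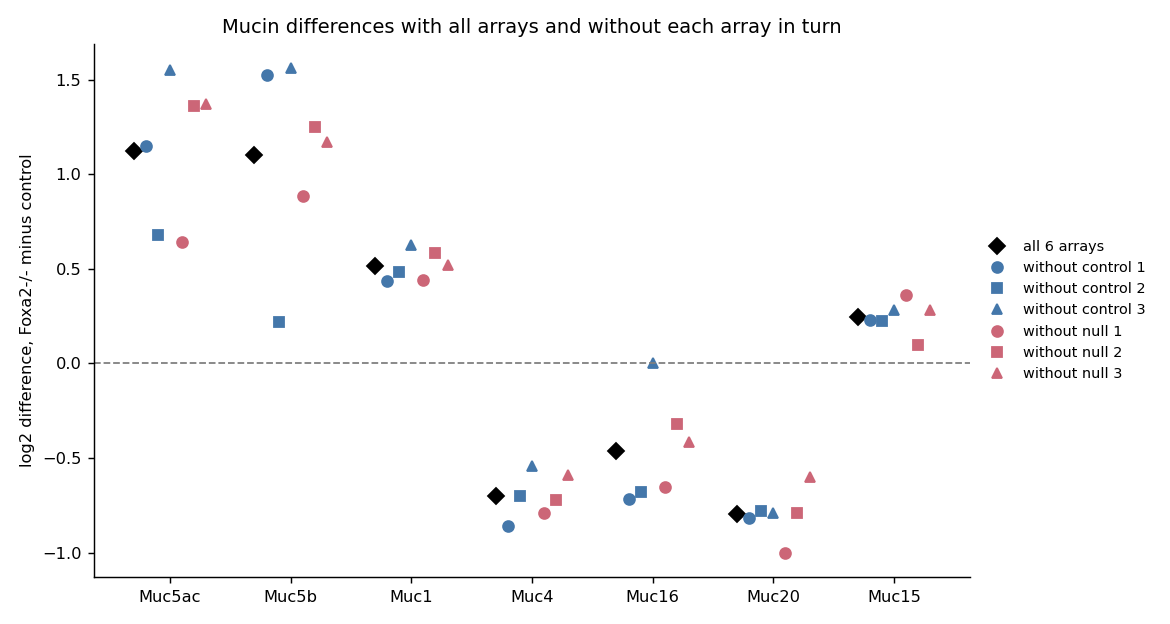
Log2 difference, Foxa2-/- minus control, of each mucin gene with all 6 arrays (black diamonds) and with each control (blue) or null (red) array left out. Muc5b drops to 0.22 without control replicate 2 and Muc16 to 0.0048 without control replicate 3, while Muc1 stays between 0.44 and 0.63 and Muc20 between -1.0 and -0.60.

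Genes that package, glycosylate and release mucins were set beside the mucins themselves. Of 25 genes of goblet cells and the mucus layer 1 rose and 0 fell, where 0.473% of all genes rose and 0.0989% fell, and 10 lay above all controls and 1 below, where 10.8% and 8.73% of all genes did so. The median difference was 0.34, beside 0.01 over all genes. The gene that rose was Slc26a4, which encodes the anion exchanger pendrin and read 6.58, 6.37 and 8.06 in controls and 11.90, 13.42 and 12.46 in null lungs (5.59, SE 0.55, adjusted p = 0.0222). The mean log2 signal of the list was 8.23, 7.30 and 8.53 in controls and 9.05, 8.73 and 8.85 in null lungs, lowest in control replicate 2 like Muc5ac and Muc5b. The list median was 0.12 without control replicate 2, up to 0.63 without any 1 other array, and 1.10 among probe sets brighter than the median.

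Of 38 genes of mucin O-glycosylation 0 passed limma's test, 9 had an unadjusted p under 0.05 (12.3% of all genes did), and the median difference was 0.01. B3gnt7, an N-acetylglucosaminyltransferase, read 7.18, 7.31 and 7.12 in controls and 8.42, 8.54 and 7.96 in null lungs (1.10, SE 0.17, adjusted p = 0.0605). Fut2, a fucosyltransferase of secreted mucins, differed by 1.10 (SE 0.21, adjusted p = 0.0936). Over all 38 members 19 differences were positive, and 6 genes lay above all controls and 4 below, where 10.8% and 8.73% of all genes did so. Of 22 genes of granule release 0 passed, 2 had an unadjusted p under 0.05 (12.3% of all genes), and the median was 0.03. Rab27a, a small GTPase of secretory granules, differed by 0.59 (SE 0.11, adjusted p = 0.0909) and Adora3, an adenosine receptor, by 1.02 (SE 0.28, adjusted p = 0.202). Over all 22 members 12 differences were positive. Above all controls lay 4 genes and below them 2, where 10.8% and 8.73% of all genes did so.

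Of 29 inducers of mucin genes 0 passed, 8 had an unadjusted p under 0.05 (12.3% of all genes), and the median was 0.06. Of these 8, 6 were higher in null lungs and 2 lower. Il33, an alarmin released by lung cells, read 12.01, 11.74 and 12.00 in controls and 12.60, 13.41 and 12.90 in null lungs (1.05, SE 0.22, adjusted p = 0.116). Il4, a type 2 cytokine, read 5.24, 5.47 and 5.97 in controls and 6.25, 7.74 and 6.99 in null lungs (1.43, SE 0.39, adjusted p = 0.2). It was below the 25th percentile of 2 of the 6 arrays. The 2 lower genes were Btc (-0.77, SE 0.26, limma adjusted p = 0.299) and Tgfa (-0.51, SE 0.18, limma adjusted p = 0.314). The part of these inducers in the mucin values was not tested. Of 8 measured genes listed as other mucins 0 passed and 0 had an unadjusted p under 0.05, with a median of -0.09. In that list 3 differences were positive. Muc2, Muc3 and Muc13 differed by -0.02, 0.12 and 0.16, and Ovgp1, Emcn and Cd164 by -0.60, -0.22 and -0.16. Prol1, a salivary mucin, was below the 25th percentile of all 6 arrays (0.29, SE 0.12, adjusted p = 0.407), and Mcam, an adhesion molecule of vessel walls also named MUC18, differed by -0.22 (SE 0.12, adjusted p = 0.52).

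Other cell types whose RNA could enter these samples were followed as lists. Of 7 leukocyte genes 4 rose, where 0.473% of all genes did: Prg2 (3.50, adjusted p = 0.0152) and Epx (2.40, adjusted p = 0.0208) of eosinophils, Cd68 of macrophages (1.45, adjusted p = 0.0198) and Itgax of macrophages and dendritic cells (1.94, adjusted p = 0.036). The other 3 did not pass and their groups overlapped: Ptprc (0.36, adjusted p = 0.798), Cd3e (0.85, adjusted p = 0.494) and Cd79a (0.32, adjusted p = 0.718). The mean log2 signal of the 7 lay between 9.10 and 9.42 on the control arrays and between 10.61 and 11.11 on the null arrays, with no overlap. Of 8 stomach and of 9 submucosal gland and oral genes 0 passed. Tff1, a trefoil peptide of stomach that is also in the goblet cell list, differed by 0.78 (SE 0.14, adjusted p = 0.0837). Ctse, a protease of stomach, differed by 0.92 (SE 0.39, adjusted p = 0.416). Gkn1, Gkn2, Atp4a and Pga5 of the stomach list were below the 25th percentile of all 6 arrays, with differences of 0.03 to 0.16. Gkn3 (0.50) and Atp4b (0.10) were above it on all 6. Dcpp1, a salivary protein, differed by -0.56 (SE 0.30, adjusted p = 0.521) and was below the 25th percentile of all 6 arrays. The other 8 of the 9 gland and oral genes had positive differences (list median 0.15). Among those 8, Bpifb2, Prol1 and Smgc were also below the 25th percentile of all 6 arrays, and Krt13 of 5. The defining markers of lung were bright: Sftpd, a surfactant protein of alveolar type II cells, read 13.2 to 13.4 in controls and 14.0 in each null array (0.68, SE 0.11, adjusted p = 0.0719). Of 7 alveolar type II genes 0 passed and 5 had positive differences, with a median of 0.06, and Napsa differed by 0.34 (SE 0.14). Of 8 alveolar type I genes 0 passed and 2 had positive differences, with a median of -0.14, with Rtkn2 at -0.52 (SE 0.18) and Akap5 at -0.29 (SE 0.13). The part of these lists in the mucin values was not tested.

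**Figure D5:**
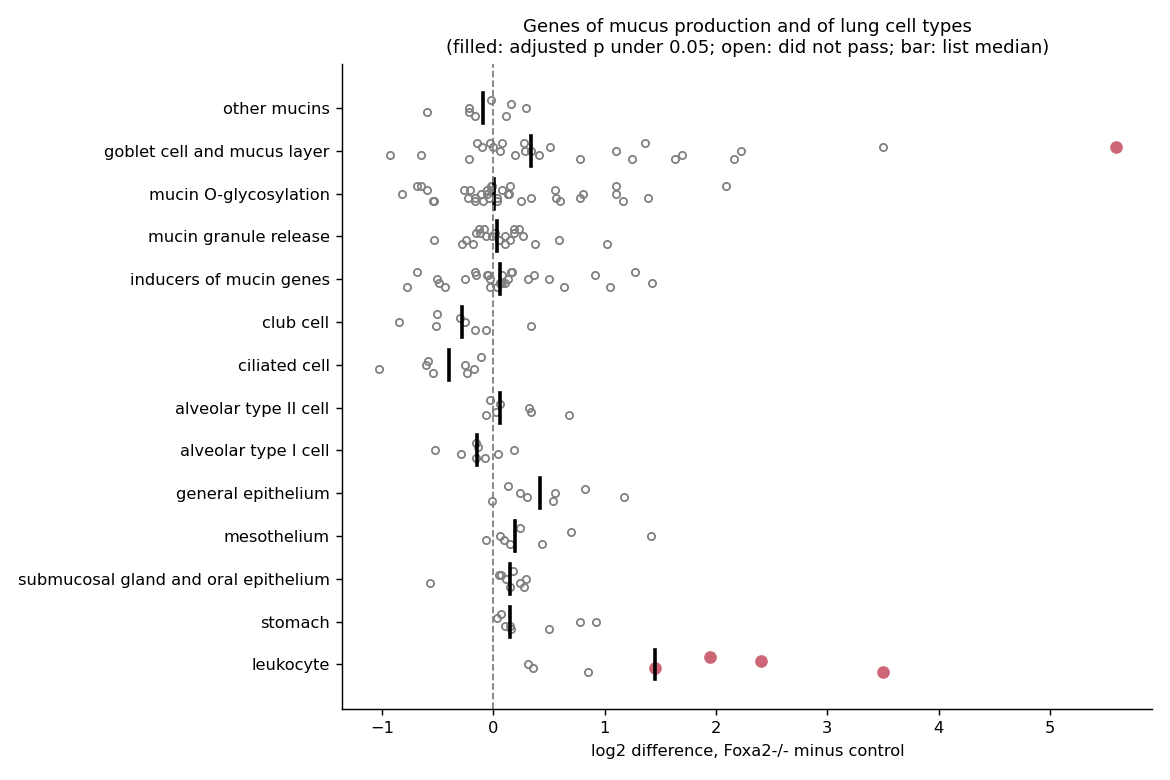
Log2 difference, Foxa2-/- minus control, of each measured member of 14 gene lists (open: did not pass, filled: limma adjusted p under 0.05), with the list median as a bar. In the goblet cell list Slc26a4, at 5.59, is the 1 member that passed, and 4 leukocyte genes passed.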

How the data were processed

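Whole-lung RNA of 3 control and 3 Foxa2-/- samples was measured, 1 array each, and groups follow the genotype label. The deposited values are log2 signals that the authors made with RMA, per the submitters' processing notes; its version is not stated in the sources at hand, and values from 2.36 to 14.95 show the log2 scale. RMA hides a shift shared by most genes and compresses differences near the floor. Of 45101 probe sets 64 Affymetrix controls were left out, and dim ones were kept. Gene symbols were those of GEO's platform table (34945 probe sets with 1 symbol, 932 with several, 9160 unnamed here), and each of 18193 genes was represented by its brightest single-gene probe set. All 7 mucins matched RefSeq by Entrez identifier.

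The test was limma's (version 3.58.1, under R 4.3.3; lmFit, then eBayes; null minus control, two-sided, Benjamini-Hochberg over all genes or all probe sets, threshold 0.05), and the fit was tested on simulated data. No pair of arrays was a duplicate: at most 74 values were identical between 2 arrays. Genes named are the 7 mucins, Foxa2, from each of 14 lists up to 4 members that passed or otherwise the 2 with the smallest p, and the 3 nearest profiles of each mucin. Further list members are named where they limit what those show. The lists hold 210 entries, of which 193 were measured. The members and lists were chosen with earlier results of these data known. Alternatives covered scaling between arrays, filters on dim probe sets, the variance model, array weights, the title number as a block, each sample left out, averaging probe sets per gene and the threshold.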

Additional observations from a re-analysis of the deposited data

How the results depend on the processing

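Across the alternatives, Muc5ac, Muc5b, Muc1, Muc4, Muc20 and Muc15 kept the direction of their differences and did not pass, except Muc20, which passed with array weights (-0.93) and in 1 of the fits without 1 array (-1.0 to -0.60). Muc16 ran from -0.71 to 0.0048 without 1 array, reversing without control replicate 3, and the dim Muc4 probe set 1432119_at from -0.18 to 0.0077, reversing without null replicate 2. Muc5b was 2.65 when only the 3 arrays with one title number were used. Filters on dim probe sets removed Muc15 (25th percentile) and also Muc5ac, Muc16 and Muc20 (median). The number of mucin genes called was 1 with array weights and 0 to 1 without 1 array, that of mucin probe sets 1 with array weights, and 3 to 5 of 7 mucin genes had groups without overlap when 1 array was left out, where 26.7% to 34.7% of all genes did (19.6% with all arrays).

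Foxa2 passed among probe sets brighter than the median and with trend and robust settings (-4.30 in both), with array weights (-4.95), with a random block for title number (-4.64) and at an adjusted p under 0.1 (-4.30), and ranged from -5.12 to -3.83 without 1 array. Over all genes limma called 104, but 48 with cyclic loess, 607 with array weights and 399 with the random block. The number was 320 at an adjusted p under 0.1 and 0 to 249 without 1 array. Over all probe sets it called 45, but 6 with cyclic loess, 72 with trend and robust settings, 564 with array weights and 279 with the random block. At an adjusted p under 0.1 it called 232, and without 1 array 0 to 144. The causes were not tested. The labels do not match null and control samples one to one. The title number, shared by 1 control and 2 null samples, was the block used. As a fixed block it left only those samples to give the difference, so its counts of genes and probe sets are not given.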
